A study of Homo sapiens with 8 samples.

Results

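The knockdown of LDB1 was compared between 6T-CEM and J.gamma1, which are human T-cell acute lymphoblastic leukaemia (T-ALL) lines, to find the genes whose response differed or reversed between the lines. The 8 libraries of the series were joined by gene, and the interaction was tested for 18552 of 64252 genes. The interaction, called the difference here, is the log2 fold change of sh-LDB1 over sh-NC in J.gamma1 minus that in 6T-CEM, so that a positive value marks a response that was higher in J.gamma1. RNA was sequenced from 4 groups of 2 libraries, which were 6T-CEM with sh-NC (a control shRNA), 6T-CEM with sh-LDB1, J.gamma1 with sh-NC and J.gamma1 with sh-LDB1. 6T-CEM is a thioguanine-resistant derivative of CCRF-CEM cells and J.gamma1 is a PLCG1-deficient derivative of Jurkat cells, and all groups were transduced with a lentivirus and selected. Each line is 1 established culture, so a difference between the lines cannot be told apart from other properties of these cultures. The sources used here do not say whether the replicates were separate cultures, so the p-values measure only the spread between these libraries.

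LDB1 is an adaptor protein that does not bind DNA itself and that joins LIM-domain proteins, such as LMO1 and LMO2, and the transcription factors attached to them. Through self-association it can hold enhancers and promoters close to each other. In T-ALL the LMO proteins and TAL1 are recurrent oncogenes that act within such complexes, and the partners that are present differ from cell to cell.

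The targeted gene was lower with sh-LDB1 in both lines, and its fold change differed between them. The study designed 3 shRNAs against LDB1, each matching 21 bases of its coding sequence on the minus strand of chromosome 10 of GRCh38 (hg38), and the sources do not name the one that the sequenced cells carried or say that it was the same in both lines. The targets are shown in the sense of the transcript because both responses compared here start from one of them.
sh-LDB1#1: ggacagaggagtgtgacaatc
sh-LDB1#2: gctacttccgcagcatctttg
sh-LDB1#3: ggataaagacgtggcacttca
The first spans the junction of exons 4 and 5 of 11 (102110959 to 102111076, intron included), the second lies in exon 6 (102110657 to 102110677) and the third in exon 7 (102109971 to 102109991). LDB1 (102106489 to 102120368) went from 3091 and 3215 normalized counts in the control libraries of 6T-CEM to 1069 and 1011 in its knockdown libraries. In J.gamma1 it went from 1739 and 1700 to 960 and 890. The groups of each line did not overlap, and the lines lay further apart before the knockdown (1.83-fold) than after it (1.13-fold). Its log2 fold changes were -1.60 (SE 0.067) and -0.90 (SE 0.068) in this order, and the difference was 0.70 (SE 0.095, adjusted p = 0.000237, quasi-likelihood test of edgeR, adjusted after Benjamini and Hochberg). The part of this unequal depletion in the differences below was not tested.

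The library totals lay between 26160492 and 30604977 counts and the biological coefficient of variation was 9.58%. The T-lineage markers were present in every library, and their summed level was 1556 to 1609 CPM (counts scaled by library total) with sh-NC and 2068 to 2082 with sh-LDB1 in 6T-CEM, against 2308 to 2309 and 3167 to 3201 in J.gamma1. The lines kept their own marks, with 7813 to 9614 counts of NKX2-5 in 6T-CEM against 69 to 81 in J.gamma1, and 0 counts of LMO1 in 6T-CEM against 135 to 318 in J.gamma1. Of the other lineages, B-lineage markers summed to 32.0 to 90.7 CPM, monocyte and granulocyte markers to 0.329 to 7.27 CPM, erythroid and megakaryocyte markers to 0.101 to 4.21 CPM with 5 of 11 genes at 0 in every library, and epithelial and packaging-cell markers to 0.831 to 2.64 CPM.

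The response to the knockdown differed between the lines for 4524 of 18552 genes (24.4%) at an adjusted p under 0.05. It was lower in J.gamma1 for 2307 genes (12.4%) and higher for 2217 genes (12%). The difference exceeded 1 on the log2 scale for 1088 of them (5.86%). Calls were more frequent among the more highly expressed genes, with 3.39% called among the 4638 least expressed genes and 45.7% among the 4638 most expressed, where the errors were smaller. Within each line, 26.9% of genes were called in 6T-CEM (14.2% lower, 12.7% higher) and 44.5% in J.gamma1 (23.0% lower, 21.5% higher). Of the 4524 genes with a different response, 3376 had the larger absolute log2 fold change in J.gamma1, with 1688 responding lower and 1688 higher there, and 1148 had it in 6T-CEM.

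Calls in opposite directions were a minority of these genes. The response was past the threshold in J.gamma1 alone for 2272 of the 4524 genes (50.2%) and in 6T-CEM alone for 666 (14.7%). In 798 genes (17.6%) both lines moved the same way with the larger change in J.gamma1, and in 139 genes (3.07%) with the larger change in 6T-CEM. In 132 genes (2.92%) neither line passed the threshold by itself. The remaining 517 genes reversed, that is, they were called in both lines in opposite directions. They made up 2.79% of all genes tested, 277 falling in 6T-CEM and rising in J.gamma1 and 240 doing the opposite. Of 934 genes with at most 3 counts in every 6T-CEM library 8 were called, and of 478 such genes in J.gamma1 1 was called. So few counts leave a large error in that line, so these numbers cannot show whether the responses of such genes differed.

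**Figure D1:**
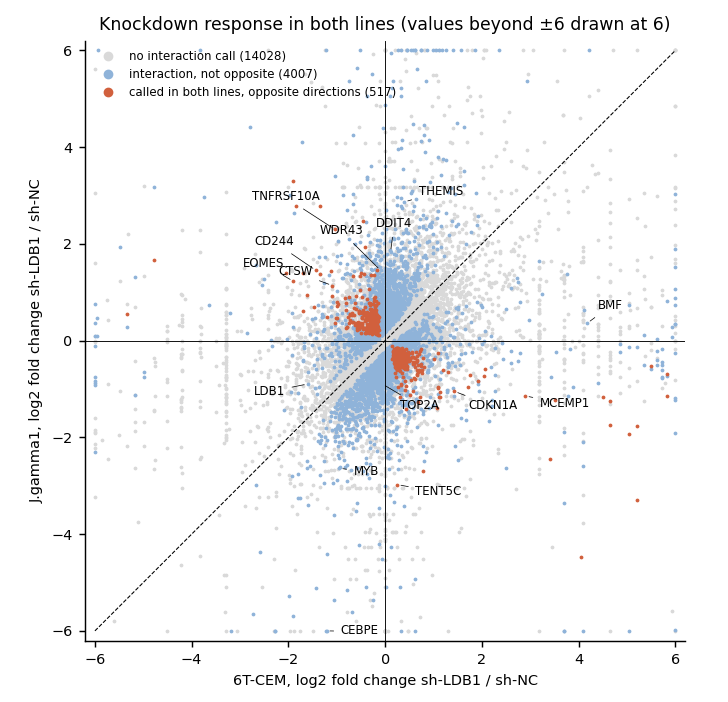
Each point is 1 of 18552 genes, with the log2 fold change of sh-LDB1 over sh-NC in 6T-CEM on the x axis and in J.gamma1 on the y axis, values beyond 6 drawn at 6, and colours marking genes with no interaction call, genes with one and the 517 that reversed. The called genes spread further along the J.gamma1 axis than along the 6T-CEM axis, as 3376 of 4524 had the larger absolute response there.

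The lines stayed far apart after the knockdown, and were slightly closer to each other than before it. The root mean square difference in log2 CPM over the genes tested was 2.118 to 2.119 for the 4 pairs of a 6T-CEM and a J.gamma1 library with sh-NC. For the 4 pairs with sh-LDB1 it was 2.002 to 2.017, so that the ranges did not overlap. The pairs of an arm share their libraries, so they are not separate replicates. Between 6T-CEM with sh-NC and J.gamma1 with sh-LDB1 it was 2.062 to 2.071. Between 6T-CEM with sh-LDB1 and J.gamma1 with sh-NC it was 2.154 to 2.159. These distances compare with 0.520 to 0.585 between replicates, 0.741 to 0.774 between knockdown and control in 6T-CEM and 0.913 to 0.929 between knockdown and control in J.gamma1. Cell line accounted for 82.0% of the sum of squares, the knockdown averaged over both lines for 7.90%, the interaction for 3.70% and the spread between replicates for 6.39%. A response in 1 line alone adds to the knockdown share as much as to the interaction share, so the knockdown share is not a shared response. The replicate share is spread over more degrees of freedom, with a mean square of 0.153 against 0.355 for the interaction. The line gap is the log2 ratio of J.gamma1 to 6T-CEM. Taken from group means of log2 CPM, its root mean square was 2.08 with sh-NC and 1.97 with sh-LDB1, a ratio of 0.946. Over the 6278 genes with a mean log2 CPM above 5 the ratio was 0.872.

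**Figure D2:**
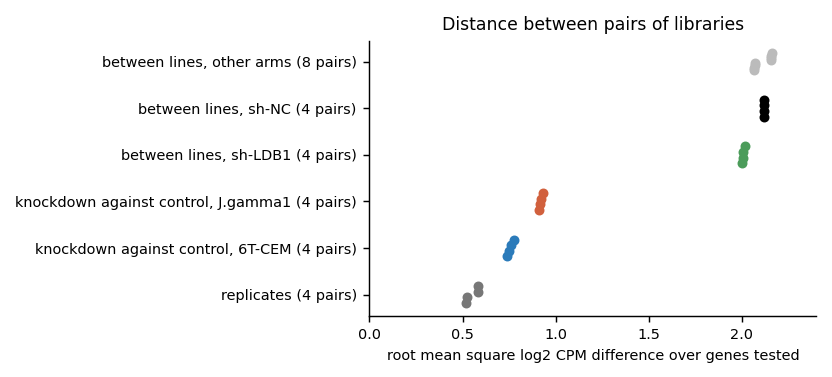
Each point is a pair of libraries and the x axis gives the root mean square difference of log2 CPM over the genes tested, with rows for the kind of pair. The pairs of different lines lie near 2 in every row, and the sh-LDB1 pairs (2.002 to 2.017) lie to the left of the sh-NC pairs (2.118 to 2.119).

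The number of genes that separated the lines moved the same way. With sh-NC, 6003 genes (32.4%) differed between the lines by more than 1 on the log2 scale at an adjusted p under 0.05, and with sh-LDB1 5328 genes (28.7%) did. The lists shared 4303 genes, which were 71.7% of the first and 80.8% of the second. The line gap was also taken from the edgeR fit. Among the 4524 genes with a different response, this fitted gap was smaller with sh-LDB1 for 2949 (65.2%) and larger for 1575. It was smaller for 57.2% of all genes tested. For 448 genes the order of the lines turned over with a called gap in both arms. Among the 517 reversing genes the gap was smaller for 368 (71.2%). The interaction and the gaps are computed from the same libraries, so these counts are not independent of each other.

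Only a few of the reversals were large. Both log2 fold changes exceeded 1 for 28 genes (0.151% of the genes tested), of which 16 rose in 6T-CEM and fell in J.gamma1 and 12 did the opposite. In 14 of them the lowest group mean was under 10 normalized counts, and the direction in one line there rested on few reads. Among the other 14, 10 were protein-coding: CTSW, ZNF641, TSHZ3, CD244, EOMES, CD248, TNFRSF10A, CDKN1A, SEMA4C and MCEMP1. When genes needed at least 1 CPM in all 8 libraries, the number of such reversals was 6 in place of 28.

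Several of the large reversals are known from cytotoxic lymphocytes. EOMES, a T-box transcription factor of cytotoxic T and natural killer cells, had 125 and 152 normalized counts in the 6T-CEM controls and 32.7 and 41.5 after the knockdown. In J.gamma1 its values were 241 and 350 in the controls and 673 and 711 after the knockdown. The gene fell in one line and rose in the other, and the line gap went from 2.13-fold to 18.6-fold. Its log2 fold changes were -1.90 and 1.23, a difference of 3.13 (SE 0.30, adjusted p = 2.39e-05). CTSW, a cathepsin of cytotoxic cells, had 486 and 494 normalized counts and then 224 and 235 in 6T-CEM, and 275 and 260 and then 590 and 590 in J.gamma1. The lines exchanged their order, with a difference of 2.23 (SE 0.17, adjusted p = 3.7e-06). CD244, a SLAM-family receptor, had 370 and 368 and then 146 and 127 normalized counts in 6T-CEM, and 63.8 and 46.8 and then 151 and 152 in J.gamma1. The knockdown libraries of both lines ended at a similar level, and the difference was 2.88 (SE 0.28, adjusted p = 2.58e-05).

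The cytotoxic list as a whole was little expressed. Of its 17 members tested, 4 had a different response (23.5%, against 24.4% of all genes), all higher in J.gamma1: CTSW, EOMES, CD244 and CST7. CST7, which encodes cystatin F, an inhibitor of cathepsins, had 53.4 and 36.5 and then 54.6 and 46.5 normalized counts in 6T-CEM, and 106 and 73.4 and then 408 and 372 in J.gamma1. It rose in J.gamma1 and was not called in 6T-CEM (0.17, adjusted p = 0.73), with a difference of 1.95 (SE 0.37, adjusted p = 0.00229). In 7 members at least 1 group had at most 3 counts in both libraries. The median difference of the list was 0.86, or 0.56 with such groups set at 3 counts.

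The other large reversals came from varied families. TNFRSF10A, which encodes the death receptor TRAIL-R1, had 185 and 189 and then 90.3 and 91.0 normalized counts in 6T-CEM, and 18.2 and 38.5 and then 133 and 147 in J.gamma1. Its difference was 3.34 (SE 0.41, adjusted p = 0.000123), and the gene overlaps other genes on the opposite strand. ZNF641, a zinc finger gene, went from 565 and 508 to 204 and 216 in 6T-CEM and from 262 and 340 to 864 and 692 in J.gamma1, a difference of 2.72 (SE 0.22). TSHZ3, a teashirt-family transcription factor, moved the other way, from 59.0 and 73.0 to 137 and 153 in 6T-CEM and from 248 and 314 to 131 and 118 in J.gamma1, a difference of -2.30 (SE 0.30). CD248, which encodes endosialin, went from 77.9 and 67.6 to 39.7 and 27.3 and from 60.1 and 48.6 to 155 and 140, a difference of 2.55 (SE 0.40). In each of these genes the knockdown and control libraries of a line did not overlap. The genes were chosen for calls in both lines, so this separation is no further support. CDKN1A, the p21 inhibitor of cyclin-dependent kinases, had means of 13.1 and 35.5 normalized counts without and with the knockdown in 6T-CEM and 150 and 72.7 in J.gamma1, a difference of -2.48.

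Some reversals of the largest size depended on few counts or on how a locus is split. SGPP2, a sphingosine-1-phosphate phosphatase, had 0 and 0 and then 6.94 and 2.02 normalized counts in 6T-CEM against 281 and 257 and then 80.6 and 76.6 in J.gamma1. RAB6B, a RAB GTPase, had 0 and 0 and then 5.95 and 8.09 in 6T-CEM against 464 and 472 and then 211 and 210 in J.gamma1. Both fell in J.gamma1, and their rise in 6T-CEM came from a few reads. The readthrough gene SPECC1L-ADORA2A had 0 and 1.07 and then 15.9 and 6.07 in 6T-CEM, and 108 and 124 and then 8.27 and 1.96 in J.gamma1. ADORA2A itself, an adenosine receptor gene on chromosome 22, had 537 and 630 and then 1487 and 1583 in 6T-CEM, and 0.911 and 0.917 and then 1177 and 1175 in J.gamma1. Summed over both, the locus had 537 and 631 and then 1503 and 1589 in 6T-CEM, and 108 and 125 and then 1185 and 1177 in J.gamma1. The sum was higher with sh-LDB1 in both lines, by 1.40 and 3.34 on the log2 scale, so the reversal of the readthrough gene was not one of the locus.

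**Figure D3:**
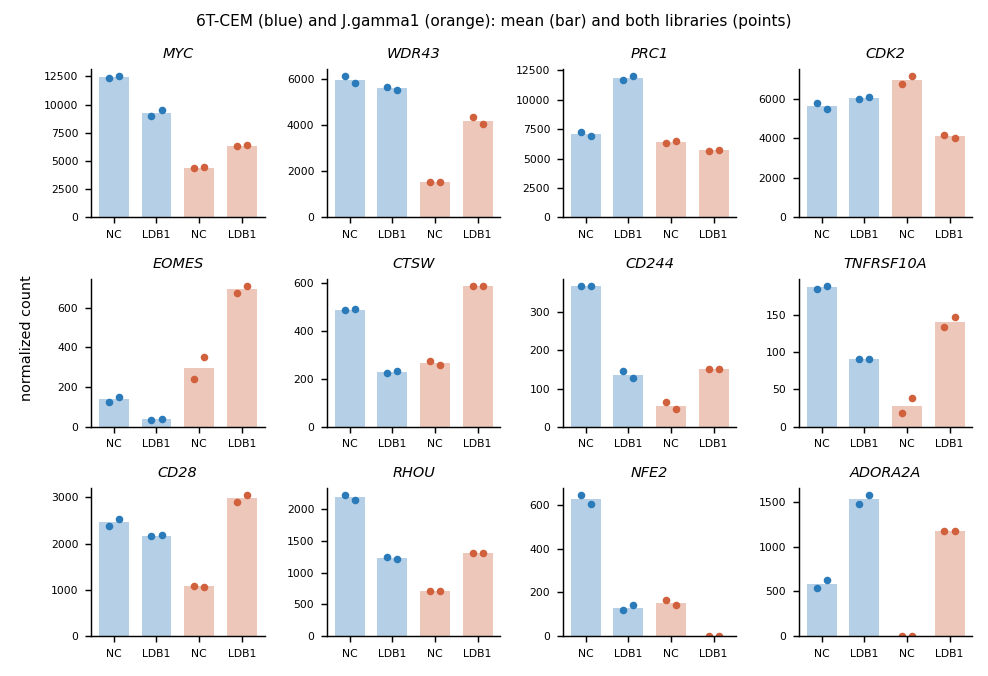
Bars give the group mean of normalized counts and points the 2 libraries, for 6T-CEM and J.gamma1 with sh-NC (NC) and sh-LDB1 (LDB1), in 12 genes with an axis from 0 for each. EOMES, CTSW, CD244 and TNFRSF10A fell in 6T-CEM and rose in J.gamma1, PRC1 rose in 6T-CEM and fell in J.gamma1, and NFE2 reached 0 in both J.gamma1 sh-LDB1 libraries.

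The genes of ribosome production differed almost uniformly. Ribosome biogenesis takes place in the nucleolus, where ribosomal RNA is transcribed, modified and assembled, and many of its genes are known targets of MYC. Of 36 members tested, 32 had a response that was higher in J.gamma1 and 0 had one that was lower, with a median difference of 0.92 against -0.0077 over all genes tested. The median log2 fold change was -0.10 in 6T-CEM, where 14 members fell and 2 rose, and 0.71 in J.gamma1, where 34 rose and 1 fell. Over all genes tested, 14.2% fell and 12.7% rose in 6T-CEM, and 23.0% fell and 21.5% rose in J.gamma1. In all, 13 members reversed, while 2.79% of all genes tested did. The share called was 88.9%, against 24.4% over all genes tested and 45.7% among the 4638 with the highest mean expression. The median absolute gap between the lines went from 1.09 with sh-NC to 0.41 with sh-LDB1, and the gap was smaller for 33 of the 36.

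WDR43, a component of the small-subunit processome (chromosome 2, 28894667 to 28948219), had 6109 and 5805 and then 5661 and 5509 normalized counts in 6T-CEM, and 1518 and 1553 and then 4329 and 4068 in J.gamma1. It rose in J.gamma1 alone and the lines drew together, with a difference of 1.54 (SE 0.074, adjusted p = 1.74e-07). NCL, which encodes nucleolin, had 77088 and 74319 and then 66475 and 67003 in 6T-CEM, and 21804 and 21925 and then 37828 and 39298 in J.gamma1. It fell slightly in one line and rose in the other, with a difference of 1.00 (SE 0.055, adjusted p = 4.05e-07). The RNA helicase DDX21 had means of 18453 and 17622 normalized counts in 6T-CEM and 4680 and 10334 in J.gamma1, a difference of 1.21. NOP56, a core protein of box C/D ribonucleoproteins, had means of 16736 and 15731 in 6T-CEM and 4286 and 8218 in J.gamma1, a difference of 1.03. Of the 4 members without a call, BYSL, NIP7 and POLR1E had differences of 0.29, 0.02 and -0.10, and PPAN had a difference of 1.23 (SE 0.39, adjusted p = 0.0923).

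MYC itself reversed. In 6T-CEM it had 12374 and 12492 normalized counts in the controls and 8955 and 9480 after the knockdown. In J.gamma1 its values were 4338 and 4431 in the controls and 6313 and 6427 after the knockdown. The lines moved toward each other, from 2.84-fold to 1.45-fold, and the log2 fold changes were -0.43 and 0.54 with a difference of 0.97 (SE 0.063, adjusted p = 1.49e-06). The cytosolic ribosomal proteins differed less: 24 of 74 were called (32.4%), 23 of them higher in J.gamma1, with a median difference of 0.17. The share called was 24.4% over all genes tested and 45.7% among the 4638 with the highest mean expression. The line gap was smaller for 60 of the 74, and this count of 24 was 8 to 12 when the first 6T-CEM sh-NC, the first 6T-CEM sh-LDB1, the first J.gamma1 sh-NC or the second J.gamma1 sh-LDB1 library was left out. RPS27A and RPL37A were among the members with the lowest p, with differences of 0.37 and 0.32.

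Promoters were searched for CACGTG, the E-box that MYC and other E-box factors can bind, in the 250 bases before and 50 after the start of each gene, from RefSeq on GRCh38.p14. A promoter was found for 10821 of 13344 protein-coding genes tested. The motif is the same on both strands, is part of no other motif searched and was chosen after the data were seen. It was present in 11 of 30 promoters of ribosome biogenesis genes (36.7%) and in 1099 of all 10821 (10.2%). It was also present in 4 of 20 promoters of the sterol list (20%), 5 of 30 of the mitosis list (16.7%) and 4 of 32 of the DNA replication list (12.5%), whose called members were mostly lower in J.gamma1. It was present in 14.3% of the promoters of genes whose response was higher in J.gamma1 and in 8.29% of those whose response was lower. The following windows show it in capitals in 4 genes of the list, as examples of letters and not as bound sites.
WDR43, chr2:28894658-28894687, plus strand: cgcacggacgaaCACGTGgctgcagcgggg
UTP20, chr12:101280083-101280112, plus strand: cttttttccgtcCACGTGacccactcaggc
FBL, chr19:39846356-39846385, minus strand: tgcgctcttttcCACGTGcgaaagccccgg
PES1, chr22:30591880-30591909, minus strand: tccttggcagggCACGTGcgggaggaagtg
The differences of these genes were 1.54, 1.03, 0.63 and 0.92 in this order, all with a call.

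The genes of mitosis differed in the opposite sense. They encode the kinases, motors and checkpoint proteins that divide the chromosomes, and 32 of 36 members tested had a response that was lower in J.gamma1, with 0 higher and a median difference of -0.42. In 6T-CEM 32 members rose and 1 fell, with a median log2 fold change of 0.44, while in J.gamma1 13 rose and 12 fell around a median of 0.02. The shares of all genes tested that rose and fell were 12.7% and 14.2% in 6T-CEM and 21.5% and 23.0% in J.gamma1. In all, 8 members reversed, while 2.79% of all genes tested did. The share called was 88.9%, against 24.4% over all genes tested and 45.7% among the 4638 with the highest mean expression. The median absolute line gap was 0.24 with sh-NC and 0.33 with sh-LDB1, and it was smaller for 11 of the 36 members.

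PRC1, which bundles microtubules of the central spindle (chromosome 15, 90966040 to 90995629), had 7251 and 6947 and then 11674 and 11966 normalized counts in 6T-CEM, and 6292 and 6470 and then 5663 and 5715 in J.gamma1. It rose in 6T-CEM and fell slightly in J.gamma1, with a difference of -0.90 (SE 0.062, adjusted p = 2.08e-06), and overlaps an antisense gene. The spindle checkpoint kinase TTK had 5638 and 5522 and then 7922 and 7054 in 6T-CEM, and 7321 and 7114 and then 5169 and 4978 in J.gamma1. Its difference was -0.93 (SE 0.080, adjusted p = 9.61e-06). The securin gene PTTG1 reversed in the same way, with log2 fold changes of 0.30 and -0.53. TOP2A, the topoisomerase that untangles sister chromatids, fell in J.gamma1 from 28102 and 27276 to 15301 and 14507 and was not called in 6T-CEM, with 29378 and 29501 and then 28287 and 28107. The 4 members without a call, CCNB1, CDC20, CDC25B and ECT2, had differences of -0.05, -0.05, -0.22 and -0.18.

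**Figure D4:**
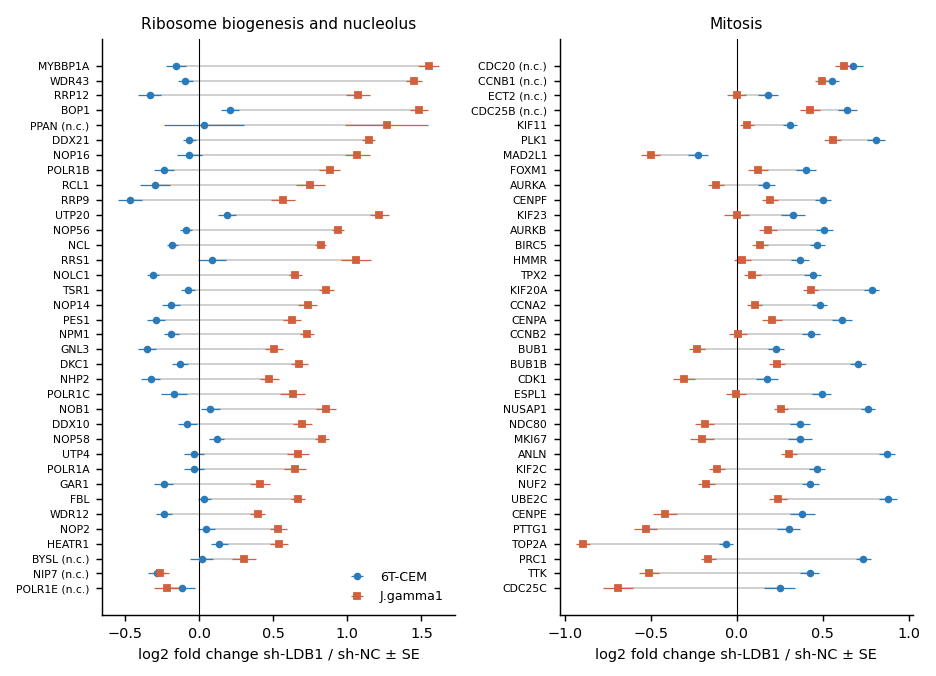
Each row is a gene of the ribosome biogenesis list or the mitosis list, with the log2 fold change of sh-LDB1 over sh-NC in 6T-CEM (circles) and J.gamma1 (squares) and bars of 1 standard error, and n.c. marking genes with no interaction call. The J.gamma1 points lie to the right in the first list (median difference 0.92) and to the left in the second (median difference -0.42).

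Promoters of the mitosis list were searched for TTTGAA and TTCGAA, the core of the cell cycle homology region, through which many G2 and M phase genes are repressed. These motifs were also chosen after the data were seen, were searched on both strands and are part of no other motif searched. They were present in 21 of 30 promoters (70.0%), against 1232 of all 10821 (11.4%) 2 of 32 promoters of the DNA replication list (6.25%), 1 of 20 of the sterol list (5%) and 7 of 30 of the ribosome biogenesis list (23.3%), whose members had the opposite difference. Among the genes whose response was lower in J.gamma1 they were present in 13.6%. The windows below show the match nearest the start of the gene in capitals, in members that were called. The ANLN window holds another match just before it, on the other strand, left in small letters.
PRC1, chr15:90994538-90994567, minus strand: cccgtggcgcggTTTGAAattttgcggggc
NUSAP1, chr15:41332882-41332911, plus strand: tggcgccagggaTTTGAAccgcgctgacga
BUB1B, chr15:40161034-40161063, plus strand: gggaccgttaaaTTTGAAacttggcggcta
ANLN, chr7:36389830-36389859, plus strand: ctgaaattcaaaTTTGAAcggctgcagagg
Their differences were -0.90, -0.51, -0.47 and -0.57 in this order. Motifs of GATA, RUNX, ETS, MYB, E-box, SREBP and AP-1 factors were counted in the same promoters. AGATAA, the motif of GATA factors, was in 5.06% of all promoters, 4.99% of those with a lower and 4.83% of those with a higher response in J.gamma1. The same shares were 9.63%, 9.10% and 11% for TGTGGT (RUNX), 8.59%, 8.06% and 9.72% for CCGGAAGT (ETS), 17.6%, 15.7% and 17.1% for TAACNG (MYB), and 16.9%, 15.8% and 16% for CAGCTG (E-box). They were 9.65%, 9.16% and 8.56% for CAGATG (E-box), 1.16%, 1.16% and 0.856% for TCACNCCAC (SREBP) and 2.82%, 2.49% and 2.75% for TGACTCA (AP-1), each searched on both strands. In the 404 promoters of reversing genes the shares were 5.45% for the GATA motif, 9.41% for RUNX, 9.90% for ETS, 13.4% for MYB, 16.6% and 10.6% for CAGCTG and CAGATG, 1.49% for SREBP and 3.47% for AP-1.

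More DNA replication genes fell in J.gamma1 than in 6T-CEM. Of 39 members tested, 24 were called (61.5%, against 24.4% of all genes tested). Of these, 22 were lower in J.gamma1, and the median difference of the list was -0.27. In 6T-CEM 19 members fell and 3 rose (median -0.17), and in J.gamma1 32 fell and 3 rose (median -0.51). The shares of all genes tested that fell and rose were 14.2% and 12.7% in 6T-CEM and 23.0% and 21.5% in J.gamma1. RRM1, the large subunit of ribonucleotide reductase, had 10570 and 11103 and then 10302 and 10684 normalized counts in 6T-CEM, and 10659 and 10730 and then 7053 and 7374 in J.gamma1. The lines were level before the knockdown and apart after it, with a difference of -0.52 (SE 0.064, adjusted p = 0.000132). The licensing factors CDT1 and CDC6 had differences of -0.66 and -0.56. The median absolute line gap of the list went from 0.29 to 0.56, and the gap was smaller for 8 of the 39. The members with a higher response in J.gamma1 were POLA1 (0.30) and POLE (0.31), the catalytic subunits of polymerases alpha and epsilon.

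Genes of G1 control were lower in J.gamma1 for 9 of the 10 called among 18 tested (55.6%, against 24.4% of all genes tested). The median difference was -0.41, or -0.30 with groups of at most 3 counts set at 3. The count of 10 was 6 when the first 6T-CEM sh-NC library was left out. CDK2, the kinase of S-phase entry, had 5807 and 5509 and then 6003 and 6116 normalized counts in 6T-CEM, and 6771 and 7138 and then 4171 and 4040 in J.gamma1. It fell in J.gamma1 alone, with a difference of -0.86 (SE 0.070, adjusted p = 6.37e-06), and overlaps other genes on the opposite strand. The transcription factor E2F1 fell in both lines, by 0.30 and by 1.14 on the log2 scale. The D-type cyclin gene CCND3 and the inhibitor gene CDKN2D reversed, with log2 fold changes of 0.21 and -0.51 for the first and 0.32 and -0.42 for the second.

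Among the T-cell receptor and signalling genes, 20 of 40 tested had a higher response in J.gamma1. A further 6 had a lower response and 14 were not called. The share called was 65%, against 24.4% of all genes tested. The median difference over the list was 0.27, and 7 members reversed, while 2.79% of all genes tested did. CD28, the costimulatory receptor, had 2380 and 2536 and then 2155 and 2192 normalized counts in 6T-CEM, and 1086 and 1070 and then 2906 and 3049 in J.gamma1. The order of the lines turned over, and the log2 fold changes were -0.18 and 1.47 with a difference of 1.64 (SE 0.083, adjusted p = 2.55e-07). THEMIS, which tunes receptor signals in thymocytes, had 178 and 209 and then 246 and 264 in 6T-CEM, and 248 and 249 and then 1902 and 1730 in J.gamma1, a difference of 2.47 (SE 0.16). The adaptor GRAP2 reversed, with log2 fold changes of -0.43 and 0.54. The coreceptor CD8A rose in both lines, from means of 880 to 1195 and from 37.9 to 180, a difference of 1.80.

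The 6 members with a lower response in J.gamma1 were CD3D, LCK, PRKCQ, NFATC1, NFATC2 and CBL. CD3D, a chain of the receptor complex, had log2 fold changes of 0.35 and -0.22 and the kinase LCK had 0.14 and -0.39, so that both reversed. CD3E and CD3G, which encode other chains of the same complex, rose in both lines with differences of 0.31 and 0.65, and CD247 rose in J.gamma1 with a difference of 0.50. TRAC, the constant region of the alpha chain, rose in both lines and more in 6T-CEM, from 65.7 and 66.5 to 622 and 586 and from 3122 and 3129 to 9704 and 9774. Its difference was -1.55 (SE 0.10, adjusted p = 1.61e-06).

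Genes of recombination and of early lymphoid cells differed in both senses. Of 18 members tested, 10 were called (55.6%, against 24.4% of all genes tested), 5 in each sense, and 1 reversed. RAG1, a subunit of the recombinase, had 2777 and 2992 and then 8871 and 9038 normalized counts in 6T-CEM, and 1091 and 1088 and then 10315 and 9977 in J.gamma1. It rose in both lines and ended at similar levels, with a difference of 1.58 (SE 0.072, adjusted p = 1.11e-07). IGLL1, a surrogate light chain, fell from 9665 and 8920 to 1342 and 1468 in 6T-CEM and from 16560 and 17837 to 370 and 315 in J.gamma1, a difference of -2.93 (SE 0.11). IL7R, the interleukin-7 receptor, rose in both lines, by 0.33 and 1.74 on the log2 scale. AEBP1 fell in J.gamma1 alone, with a difference of -1.07.

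Among the LDB1 complex and its partner factors 11 of 25 members were called, 5 lower and 6 higher, and 0 reversed. The share called was 44%, against 24.4% of all genes tested and 45.7% among the 4638 with the highest mean expression. TAL1, a basic helix-loop-helix factor of the complex, had 1284 and 1434 and then 1334 and 1274 normalized counts in 6T-CEM, and 9198 and 8889 and then 3875 and 3840 in J.gamma1. It fell in the line where it was abundant, with a difference of -1.17 (SE 0.084, adjusted p = 2.42e-06). ID3, an inhibitor of E proteins, had 922 and 803 and then 1404 and 1429 in 6T-CEM, and 690 and 669 and then 3818 and 3945 in J.gamma1, a difference of 1.80 (SE 0.10). RUNX1 fell in both lines, by 0.34 and by 0.98 on the log2 scale, with a difference of -0.64. NFE2, a bZIP factor of erythroid and megakaryocytic cells, had 644 and 604 and then 117 and 141 in 6T-CEM, and 163 and 141 and then 0 and 0 in J.gamma1. Against a floor of 3 counts per library its log2 change in J.gamma1 was -5.65 or lower, beside -2.28 in 6T-CEM. The partner genes LMO2, LMO4, LYL1, GATA3 and TCF3 had differences of -0.43, -0.30, -0.44, 0.21 and 0.08 and were not called.

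Of 35 T-lineage and master transcription factors 20 were called (57.1%, against 24.4% of all genes tested), 11 lower and 9 higher. In this list 4 reversed, while 2.79% of all genes tested did. MYB fell in both lines, by 0.95 in 6T-CEM and by 2.64 in J.gamma1 on the log2 scale. MYC and EOMES were 2 of the 4 reversals, and SATB1 (-0.18 and 0.24), a chromatin organizer of thymocytes, and TCF7 (0.16 and -0.33), a Wnt pathway factor of T-cell commitment, were the others. KLF2, a regulator of T-cell quiescence and migration, fell in J.gamma1 and was not called in 6T-CEM, a difference of -1.55.

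Lipid genes fell more often than they rose. In 6T-CEM 20 of 26 sterol genes fell and 2 rose, and in J.gamma1 21 fell and 1 rose. In the fatty acid and LXR list of 17 the counts were 12 and 1 in 6T-CEM and 11 and 1 in J.gamma1. Over all genes tested, 14.2% fell and 12.7% rose in 6T-CEM, and 23.0% fell and 21.5% rose in J.gamma1. In the sterol list, which holds the enzymes of cholesterol synthesis and their SREBP regulators, 13 of 26 members were called, 11 lower and 2 higher. The share called was 50%, against 24.4% of all genes tested and 45.7% among the 4638 with the highest mean expression. The median difference was -0.16, with median log2 fold changes of -0.48 and -0.73. INSIG1, which retains SREBP in the endoplasmic reticulum, had 11316 and 11096 and then 5706 and 5568 normalized counts in 6T-CEM, and 25877 and 26034 and then 7254 and 7847 in J.gamma1. It fell in both lines and further in J.gamma1, with a difference of -0.79 (SE 0.066, adjusted p = 7.65e-06). SREBF2 fell in J.gamma1 and was not called in 6T-CEM, a difference of -0.50. The 2 members with a higher response in J.gamma1 were HMGCS1 (0.30) and TM7SF2 (0.94), and STARD4 was the 1 that reversed. In the fatty acid and LXR list 8 of 17 were called (47.1%, against 24.4% of all genes tested), 4 in each sense. MYLIP, an LXR target that degrades the LDL receptor, fell in 6T-CEM alone with a difference of 1.51.

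Genes of the amino acid stress response were higher in J.gamma1 for 11 of the 13 called among 29 tested. The share called was 44.8%, against 24.4% of all genes tested and 45.7% among the 4638 with the highest mean expression. The median difference was 0.24. DDIT4, an inhibitor of mTORC1, had 1232 and 1200 and then 1277 and 1349 normalized counts in 6T-CEM, and 1507 and 1656 and then 5368 and 5833 in J.gamma1. It rose in J.gamma1 alone, with a difference of 1.71 (SE 0.096, adjusted p = 4.2e-07). ASNS, asparagine synthetase, also rose in J.gamma1 alone (difference 1.29). The transporter SLC38A2 fell in both lines with a difference of -1.07. ATF4 and DDIT3 themselves had differences of -0.04 and -0.15 and were not called.

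Of 21 p53 targets 12 were called, 8 lower and 4 higher, with a median difference of -0.19 and 3 reversals (57.1% called, against 24.4% of all genes tested, of which 2.79% reversed). Of 29 genes of the BCL2 family and caspases 16 were called (55.2%, against 24.4% of all genes tested), 9 lower and 7 higher. Fewer of them were called without the second 6T-CEM sh-LDB1 library. The pro-apoptotic BMF had 2.23 and 3.22 and then 51.6 and 51.6 normalized counts in 6T-CEM, and 1238 and 1231 and then 1479 and 1691 in J.gamma1. The gene was almost silent in one line before the knockdown and abundant in the other throughout, with a difference of -3.82 (SE 0.33, adjusted p = 9.67e-06). CASP8, the initiator caspase of death receptors, rose in both lines and more in J.gamma1, from means of 1630 to 3244 and from 1382 to 4818. BCL2L1, which encodes BCL-XL, fell in J.gamma1 alone, with a difference of -0.57. BCL2 fell by 0.83 and by 1.59 on the log2 scale.

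Homing receptors differed in both senses. Of 28 homing receptors and integrins 15 were called (53.6%, against 24.4% of all genes tested), 5 lower and 10 higher. The chemokine receptor CCR4 fell in 6T-CEM, from 1665 and 1872 to 804 and 736 normalized counts, and had 176 and 242 and then 337 and 249 in J.gamma1, where the rise was small (0.49, adjusted p = 0.0456), a difference of 1.69 (SE 0.23, adjusted p = 0.000557). RHOU, an atypical small GTPase, had 2228 and 2151 and then 1252 and 1222 in 6T-CEM, and 709 and 717 and then 1316 and 1312 in J.gamma1. It reversed and the lines ended at a similar level, with a difference of 1.71 (SE 0.093, adjusted p = 4e-07). RHOH, a haematopoietic relative of the small GTPases without GTPase activity, fell in both lines with a difference of -1.15.

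**Figure D5:**
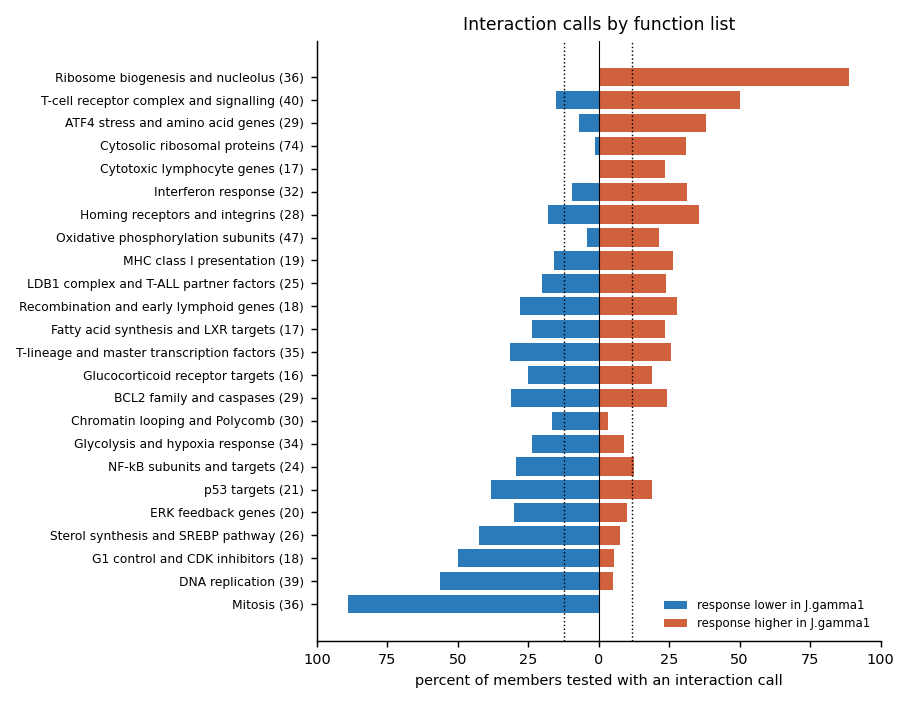
Bars to the left and right give the percent of members tested, for each of 24 function lists, whose response was lower or higher in J.gamma1, with the number tested in parentheses after the name. Mitosis (32 of 36) reaches furthest to the left and ribosome biogenesis (32 of 36) furthest to the right, while 24.4% of all genes tested were called in either sense. Among the 4638 genes with the highest mean expression the share was 45.7%, and the lists were not matched for expression.

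A further set was chosen by the size of the difference among genes whose larger change was a fall in J.gamma1, whose group means were all 10 normalized counts or more and reached 100 in 1 group or more, leaving out the genes that reversed with both changes over 1. ALDH1A2, the retinaldehyde dehydrogenase that makes retinoic acid (chromosome 15, 57953424 to 58497866), had 9386 and 9715 and then 2538 and 2592 normalized counts in 6T-CEM, and 13362 and 14136 and then 262 and 268 in J.gamma1. It fell in both lines, with a difference of -3.80 (SE 0.076, adjusted p = 1e-10). CEBPE, a myeloid C/EBP factor, had 501 and 429 and then 198 and 202 in 6T-CEM, and 1440 and 1584 and then 31.0 and 12.8 in J.gamma1, so that the line with more of it became the line with less (difference -4.90, SE 0.30). TENT5C, a poly(A) polymerase, had 3500 and 3880 and then 4364 and 4433 in 6T-CEM, and 4495 and 4346 and then 562 and 562 in J.gamma1. It rose slightly in one line and fell in the other, a difference of -3.23 (SE 0.086, adjusted p = 1.46e-09). PLTP and RIMS2 fell in J.gamma1 and were not called in 6T-CEM, with differences of -3.30 and -4.38.

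GPR65, a proton-sensing receptor of lymphocytes, rose in both lines, from 427 and 417 to 654 and 582 and from 128 and 161 to 1275 and 1188 normalized counts, a difference of 2.54 (SE 0.17). RGL4 and EPHA1 also rose in both lines and more in J.gamma1, with differences of 3.08 and 2.48, while NINJ2 fell in 6T-CEM and rose in J.gamma1 (difference 2.93). STX16-NPEPL1 had a difference of 3.64, but its replicates of 6T-CEM ranged from 102 to 271, and the sum of STX16, NPEPL1 and the readthrough gene changed by -0.35 and 0.062 on the log2 scale. Larger changes in 6T-CEM were rarer. OTOF, SGK3 and ACKR3 fell in 6T-CEM and were not called in J.gamma1 (differences 2.01, 1.96 and 1.80), and DGKG, which overlaps ETV5 on the same strand, fell in 6T-CEM and rose in J.gamma1 (1.80). CRIP2 and COL6A1 rose in 6T-CEM and were not called in J.gamma1, and CDC42EP4 and LZTS3 rose in 6T-CEM and fell in J.gamma1, with differences between -2.74 and -3.06 for these 4 genes. GLDC had a difference of -2.57 and was called in J.gamma1 alone. The interaction calls of SGK3, ACKR3 and GLDC were lost without 1 of several libraries, in 3, 4 and 5 of the 8 fits that left out 1 library.

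Few genes were switched on or off in one line. With 10 or more normalized counts on average in sh-NC and at most 3 counts in both sh-LDB1 libraries, 11 genes with a different response were turned off in J.gamma1 and 8 in 6T-CEM. In the opposite sense, 32 were turned on in J.gamma1 and 13 in 6T-CEM. All were counted among the 4524 genes with a different response, of 18552 tested. The knockdown was called for 44.5% of all genes tested in J.gamma1 and for 26.9% in 6T-CEM. ADORA2A is counted among the 32, although the overlapping readthrough gene had 108 and 124 normalized counts in J.gamma1 with sh-NC, so that its count depends on how reads of the locus were assigned. ZNF683, a zinc finger factor of resident T cells, had 95.7 and 119 and then 228 and 288 normalized counts in 6T-CEM, and 0 and 0 and then 40.3 and 48.1 in J.gamma1, which is a log2 change of at least 4.01 against 3 counts per library. CPNE4 had 366 and 334 and then 448 and 437 in 6T-CEM, and 2.73 and 1.83 and then 42.4 and 43.2 in J.gamma1. TUBB4A, a beta tubulin, had 18.9 and 31.1 and then 0 and 0 in 6T-CEM, and 1714 and 1557 and then 940 and 887 in J.gamma1. HKDC1, a hexokinase-like gene, rose in both lines, from 6.68 and 15.0 to 75.4 and 92.0 and from 5.47 and 4.58 to 213 and 210, a difference of 2.43, or 1.74 with no call (adjusted p = 0.109) without the second 6T-CEM sh-NC library.

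Lists near the background of 24.4% were those of oxidative phosphorylation, with 12 of 47 subunits called (25.5%, or 7 without the first 6T-CEM sh-NC library), chromatin looping and Polycomb with 6 of 30, and the cytotoxic genes. In the chromatin list, which holds CTCF, cohesin and Mediator genes that also take part in looping, RAD21, NIPBL, PDS5A, MED12 and EED were lower in J.gamma1, by differences of -0.49, -0.35, -0.22, -0.47 and -0.35, and the DNA methyltransferase gene DNMT3B was higher (0.58). MED12 lost its call without the second J.gamma1 sh-LDB1 library (-0.40, adjusted p = 0.0554), and NIPBL without either 6T-CEM sh-NC library or the second 6T-CEM sh-LDB1 library (-0.31 to -0.35). That count of 6 was 3 without the first 6T-CEM sh-NC library and 10 after a correction for GC content and length. CTCF, YY1, SMC1A and EZH2 had differences of 0.14, -0.09, -0.14 and 0.09 and were not called.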

How the data were processed

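RNA was extracted with TRIzol, and libraries made with an Illumina TruSeq kit were sequenced, per the labels. The authors used HISAT2 2.2.0 for alignment to hg38 and StringTie for quantification, and they deposited whole-number counts per gene for each line, without normalization. The annotation release, strand setting and handling of multiply mapped reads are not given in the sources used here, so overlapping and near-identical genes are uncertain.

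The tables were joined by Ensembl identifier, and 56105 of 64252 genes were matched to a symbol with GENCODE release 44. All 8 libraries were fitted together in edgeR 4.0.16 (R 4.3.3) by the quasi-likelihood test with TMM normalization, filterByExpr and Benjamini-Hochberg adjustment over every gene in the fit, called at 0.05. Normalized counts are counts scaled by TMM library size to the mean library total. Same-numbered replicates did not deviate together (correlations -0.013 and -0.014), so no block was used. Groups with at most 3 counts per library were set at 3 for bounds. On simulated counts of 18052 genes, 36%, 48%, 86% and 98% of 1.5-, 2-, 4- and 8-fold differences were recovered, and 2.19% of 137 calls were false. Each fold was given to 50 genes above a minimum mean count, and the simulated spread depended on expression level alone. A far smaller share of genes differed there than the 24.4% called in the data, so these rates need not hold for the reported calls.

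Named genes were LDB1, the largest protein-coding reversals, the 5 largest differences in each of 4 kinds set by line and sign, genes off in a group, the largest changes of line gap, and the 4 lowest p of each function list. Other list members were named after their values were seen. 1 function list and some genes are not reported here. The lists and members were chosen with earlier results of these data known. Alternatives were other normalization factors, filters on low counts, DESeq2 1.42.0, a replicate block, thinning, GC content and length offsets, and leaving out each library. Promoter sequences came from RefSeq (GRCh38.p14).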

Additional observations from a re-analysis of the deposited data

Results flagged for a closer look

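Each result here is a difference between the 2 cell lines in the response to sh-LDB1 by the interaction test of edgeR. The responses differed for 4524 genes, were called in opposite directions for 517, and were opposite with each log2 fold change over 1 for 28. The targeted gene LDB1 was among the 4524, with a difference of 0.70.

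The reversing genes named by rule were SPECC1L-ADORA2A (-8.53), RAB6B (-6.99), SGPP2 (-6.98), KCNJ4 (-6.38), SPTB (-4.74), TNFSF13B (4.62), CFTR (4.14), EOMES (3.13), CD244 (2.88), ZNF641 (2.72), CD248 (2.55) and TSHZ3 (-2.30), each value being the difference on the log2 scale. SPECC1L-ADORA2A, RAB6B, SGPP2, KCNJ4, SPTB, TNFSF13B and CFTR had a group mean under 10 normalized counts, SPECC1L-ADORA2A in both lines and the others in one. With groups of at most 3 counts per library set at 3, the differences were -6.24 for SPECC1L-ADORA2A, -2.25 for RAB6B, -2.23 for SGPP2, 3.19 for TNFSF13B and 2.73 for CFTR. KCNJ4, a potassium channel, had means of 0 and 3.01 normalized counts in 6T-CEM and 107 and 31.9 in J.gamma1, so both 6T-CEM groups lay near 3 counts per library and no fold is given for that line. SPTB, a spectrin, had means of 2.68 and 32.5 in 6T-CEM and 463 and 199 in J.gamma1. The cytokine gene TNFSF13B (BAFF) had 173 and 48.5 and then 0.911 and 6.98, and the chloride channel gene CFTR 340 and 133 and then 0.911 and 7.13, in the same order. The call of KCNJ4 was lost without the second 6T-CEM sh-LDB1 library (-5.81, adjusted p = 0.0571) and that of CFTR without the first J.gamma1 sh-LDB1 library (3.31, adjusted p = 0.0516), in edgeR. With 2 libraries per group, no library could be tested as standing apart from its group.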

How the results depend on the processing

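The number of genes with a different response was 4093 without a filter on low counts, 4172 with DESeq2 (3237 genes had no adjusted p), 5013 with GC content and length offsets, and 3574 to 4028 when 1 library was left out. No call of the reported fit that was called again changed its sign. The replicate block within each line gave 4587 genes, which held 94.5% of those reported, and moved no reported count by over 1.5 times. It ended the call of GLDC among the 147 named genes called. Of these, 137 kept the call under every alternative run that tested them. The filter of at least 1 CPM in all 8 libraries tested only 117 of the 170 named genes. The genes that lost a call were KCNJ4, CFTR, SGK3, ACKR3, GLDC, WNT2B, HKDC1, MED12, NIPBL and CD7. GLDC also lost it with DESeq2 and after thinning, and WNT2B and CD7 in 7 and 6 of the 8 fits that left out 1 library. The count of reversing genes was 429 to 603, and 355 to 428 with 1 library left out. Requiring at least 1 CPM in all 8 libraries gave 618 genes with a difference over 1, 6 reversals over 1 in both lines, 2273 line genes with sh-NC and 1722 with sh-LDB1, and a ratio of the line gaps of 0.904, on fewer genes (11959). That ratio was 0.952 with upper-quartile factors, 0.951 without a filter, 0.950 with GC and length offsets, and 0.938 to 0.961 with 1 library left out. The share of genes with a smaller gap was 65.6% with upper-quartile factors, 65.9% without a filter, 65.8% with DESeq2, 64.6% with GC and length offsets, and 64.1% to 67.5% with 1 library left out. The cause of these shifts was not tested. With 2 libraries per group the median error of a difference was 0.226 over all genes tested. It was 1.12 among the 4638 least expressed genes and 0.0857 among the 4638 most expressed. Differences of weakly expressed genes that were larger than 0.226 could therefore also be missed. Left-out fits assume that the lone library varies like the others.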

Other observations

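Interferon, MHC class I, NF-kB and metabolic genes had calls in both senses. The shares called were 40.6% for interferon, 42.1% for MHC class I and 41.7% for NF-kB genes, against 24.4% of all genes tested. Among the 4638 genes with the highest mean expression the share was 45.7%. Of 32 interferon response genes 13 were called, 3 lower and 10 higher in J.gamma1, with a median difference of 0.00. IFIT3, which encodes an antiviral protein that binds RNA-sensing partners, had means of 88.0 and 110 normalized counts in 6T-CEM and 16.4 and 113 in J.gamma1, a difference of 2.46. IFI44 rose in both lines (means of 541 and 1061, and 33.8 and 184), and OAS2, an RNA-activated synthetase, reversed with log2 fold changes of -0.53 and 0.62. Of 19 MHC class I presentation genes 8 were called, 3 lower and 5 higher. The chaperone CALR fell in both lines, with a difference of -0.78, and the peptidase ERAP2 rose in J.gamma1 alone (0.79). Of 24 NF-kB genes 10 were called, 7 lower and 3 higher, or 6 without the first 6T-CEM sh-NC library. The subunit RELB fell in J.gamma1 alone (difference -1.63) and the deubiquitinase CYLD reversed (0.37 and -0.52).

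Of 20 ERK feedback genes 8 were called (40%, against 24.4% of all genes tested), 6 lower and 2 higher. In 6 members a group lay at or below 3 counts. DUSP6, a phosphatase of ERK, had means of 1473 and 1302 normalized counts in 6T-CEM and 230 and 83.7 in J.gamma1, a difference of -1.28. The count was 5 with at least 1 CPM required in all 8 libraries and 5 without the second J.gamma1 sh-LDB1 library. Of 34 glycolysis and hypoxia genes 11 were called (32.4%, near the 24.4% of all genes tested), 8 lower and 3 higher. The hexokinase HK2 and the glucose transporter SLC2A1 rose in J.gamma1 alone (differences 1.04 and 0.87), the mitophagy receptor BNIP3L fell in both lines (-0.97), and GAPDH and LDHA were not called (-0.07 and 0.01). Of 16 glucocorticoid receptor targets 7 were called (43.8%), 4 lower and 3 higher. FKBP5 rose in J.gamma1 alone (0.76), DUSP1 fell there alone (-1.27), and the receptor gene NR3C1 had a difference of -0.04 and was not called.

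By position, between 21.5% and 30% of the genes tested on a chromosome had a different response, the lowest on X and the highest on 20. The share was 30.5% among protein-coding genes and 6.91% among long non-coding genes. The selection markers of the lines were still transcribed, with 1287 to 1707 counts of HPRT1 in 6T-CEM and 5450 to 8720 counts of PLCG1 in J.gamma1, and neither response differed between the lines by the test (0.07 and -0.14).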
